A study of Mus musculus with 8 samples.

Results

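The response of regulatory T cells to the loss of Pparg was compared between skin and spleen in 8 libraries, all 8 of the series, as the genotype effect in skin minus the genotype effect in spleen. Of 12414 genes tested, 12 had an effect that differed between the tissues, 9 with a higher and 3 with a lower effect in skin than in spleen. The mice carried either Pparg+/+ Foxp3-Cre, called WT, or Ppargf/f Foxp3-Cre, called KO. They were untreated and young, 2 weeks old in the series' design text and at day 13 in the sample titles. All 4 groups, made of both genotypes in both tissues, therefore carried the Cre, which the Foxp3 promoter restricts to cells that express Foxp3, and each group had 2 libraries. Every library came from 1000 cells sorted in 2 rounds. How many mice gave each library is not stated. In every group replicate 1 carried Xist and replicate 2 Y-linked transcripts, so the 2 libraries differed in sex. The p-values therefore measure a spread between libraries that includes any sex difference and may be partly technical.

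Regulatory T cells (Tregs) are CD4 T cells that depend on the transcription factor Foxp3 and restrain immune responses. Those in barrier tissues such as skin carry an effector programme that most spleen Tregs lack, while many spleen Tregs keep genes of resting, recirculating T cells. PPARγ, the product of Pparg, is a nuclear receptor that binds fatty acids and their derivatives, pairs with RXR on DNA, and is known in Tregs chiefly from adipose tissue.

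Library totals ran from 3115832 to 4466963 counts, with 17262 to 19274 genes detected. Gene levels are CPM after TMM scaling for library size, and differences are on the log2 scale with their standard errors (SE). A gene was called where its adjusted p from edgeR's quasi-likelihood test was under 0.05. Pparg stood at 75.7 and 59.8 CPM for WT skin and 8.46 and 13.3 for KO skin. In spleen it was at 22.5 and 12.3 CPM in WT and 2.16 and 1.66 in KO. Pparg was thus lower in every KO library than in every WT library of the same tissue. Its log2 change was -2.59 in skin and -2.89 in spleen, and the difference of 0.30 ± 0.308 between them was not called (edgeR adjusted p = 0.845). The difference changed sign without KO skin replicate 2 (-0.03) and without WT spleen replicate 1 (-0.21). Foxp3, between 174 and 380 CPM in all 8 libraries, did not pass the test either (-0.31 ± 0.189, edgeR adjusted p = 0.668). Cd4 was at 530 to 615 CPM of the total count, while the keratin gene Krt5 reached at most 0.841 and the myeloid lysozyme gene Lyz2 at most 1.96. The 17 myeloid markers summed to 166 to 384 CPM of the total count, of which Ctss made up 125.5 to 335.6. Ctss was higher in KO skin (175.1 and 240.7) than in WT skin (132.1 and 125.5). Another of them, F13a1, went the other way, at 51.3 and 31.8 CPM for WT skin and 6.8 and 4.48 for KO skin. The 12 Langerhans and dendritic cell markers summed to 187 to 289 CPM in skin and 72.3 to 92.4 in spleen. Among them Epcam was at 93.8 to 144 CPM in skin. Mfge8 was at 53.0 to 59.3 CPM in skin. Xcr1 was at 82.4 and 78.6 CPM for WT skin and 14.1 and 5.9 for KO skin. Other members went the other way at low levels. Flt3 was at 0 and 0 CPM for WT skin and 1.7 and 1.96 for KO skin. Cd209a was at 0 and 1.28 against 8.99 and 3.64, and Zbtb46 at 2.69 and 1.93 against 4.13 and 6.73. Cd207 reached at most 0.28 CPM and Clec9a at most 0.504 in any library. The 12 B cell markers summed to 523 to 1060, of which the immunoglobulin heavy chain gene Ighm made up 504 to 995 and the other 11 made up 19.3 to 64.9. In bulk RNA, fewer cells of a type and less RNA per cell cannot be told apart.

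The 12 called genes were 0.0967% of those tested. The 9 higher genes (0.0725%) were Rrs1, Psmd3, Vars, Unc119b, Tcf7, Zdhhc3, Peli1, Cd96 and Tpi1. The 3 lower ones (0.0242%) were Jup, Calcrl and Sesn1. By the unadjusted test, 1178 genes had a p under 0.05 (9.49%), of which 739 were higher (5.95%) and 439 lower (3.54%). For all 12 genes the WT and KO libraries did not overlap in skin or in spleen, as for 39.9% and 38.6% of tested genes. The test within 1 tissue called 111 genes in skin (0.894%) and 35 in spleen (0.282%). Over all tested genes the median difference was 0.01, with quartiles at -0.29 and 0.34.

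Calling genes on the difference of the genotype effects favours effects of opposite sign, so counts of opposite signs only describe the 12. The genotype effects pointed in opposite directions for 9 of the 12 genes. For 7 of the 9 (0.0564% of those tested), here called crossing genes, the unadjusted p was under 0.05 in both tissues (10.8% of tested genes in skin, 7.83% in spleen), and all 7 were higher in KO than in WT in skin and lower in KO in spleen. They code for parts of protein synthesis and turnover, a glycolytic enzyme, a ubiquitin ligase and lipid-related proteins. For the other 5, Tcf7, Cd96, Sesn1, Calcrl and Jup, the effect was larger in skin, and their spleen effects did not pass the test. Of these, Sesn1 and Calcrl were lower in KO in skin and higher in KO in spleen.

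**Figure D1:**
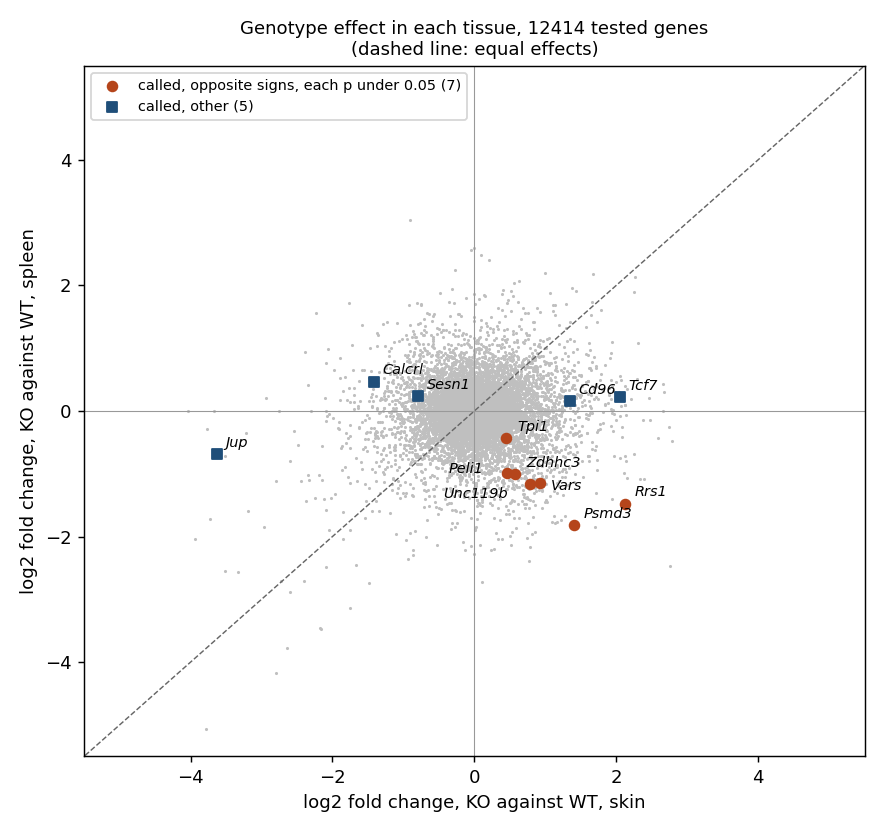
Genotype effect (KO against WT, log2 fold change) in skin on the horizontal axis and in spleen on the vertical axis for 12414 tested genes, each a point. The 7 crossing genes (circles) lie at the lower right, and the other 5 called genes (squares) have spleen changes from -0.68 (Jup) to 0.47 (Calcrl), all away from the dashed line of equal effects.

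Vars codes for the cytosolic valyl-tRNA synthetase, which joins valine to its tRNA (chr17:35000987-35016322, plus strand). Its levels were 72.8 and 108 CPM for WT skin, 150 and 191 for KO skin, 183 and 170 for WT spleen, and 86.3 and 73.1 for KO spleen. Neither tissue's genotypes overlapped, and KO skin stood near WT spleen while KO spleen stood near WT skin. On the log2 scale Vars rose by 0.92 ± 0.179 in KO skin (edgeR adjusted p = 0.0206) and fell by 1.14 ± 0.179 in KO spleen (edgeR adjusted p = 0.012). The effects differed by 2.06 ± 0.253, a 4.18-fold difference (edgeR adjusted p = 0.00446). Vars kept its call without any 1 library, with an edgeR adjusted p of 0.000134 to 0.0461.

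Psmd3 codes for a subunit of the proteasome's regulatory particle, which admits ubiquitin-tagged proteins (chr11:98682554-98695979, plus strand). Psmd3 had CPM levels of 14.6 and 31.3 for WT skin and 52.6 and 67.6 for KO skin. In spleen it was at 190 and 175 CPM in WT and 60.7 and 42.2 in KO. The WT libraries were far apart between the tissues, whereas the KO libraries of skin and spleen overlapped. Psmd3 rose by 1.41 ± 0.294 in KO skin (edgeR adjusted p = 0.0474) and fell by 1.82 ± 0.267 in KO spleen (edgeR adjusted p = 0.0203), a difference of 3.23 ± 0.397 (edgeR adjusted p = 0.0114). The call on the difference ended without KO skin replicate 1, KO skin replicate 2 or WT spleen replicate 2 (edgeR adjusted p = 0.0604 to 0.106).

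Rrs1 codes for a nucleolar factor in the assembly of the large ribosomal subunit (chr1:9545408-9547455, plus strand). Its levels were 2.71 and 4.98 CPM for WT skin and 19.3 and 16.9 CPM for KO skin. In spleen they were 46.1 and 36.3 CPM for WT and 19.7 and 9.49 CPM for KO. As for Psmd3, the KO libraries of skin and spleen overlapped while the WT libraries were well apart. Rrs1 rose by 2.13 ± 0.404 in KO skin (edgeR adjusted p = 0.0163), and its spleen change of -1.48 ± 0.343 missed the threshold (edgeR adjusted p = 0.105). The difference of 3.61 ± 0.53, or 12.2-fold, was the largest of the 12 (edgeR adjusted p = 0.0114). It lost its call when WT skin replicate 1 or replicate 1 of KO skin was left out (edgeR adjusted p = 0.106 to 0.111).

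**Figure D2:**
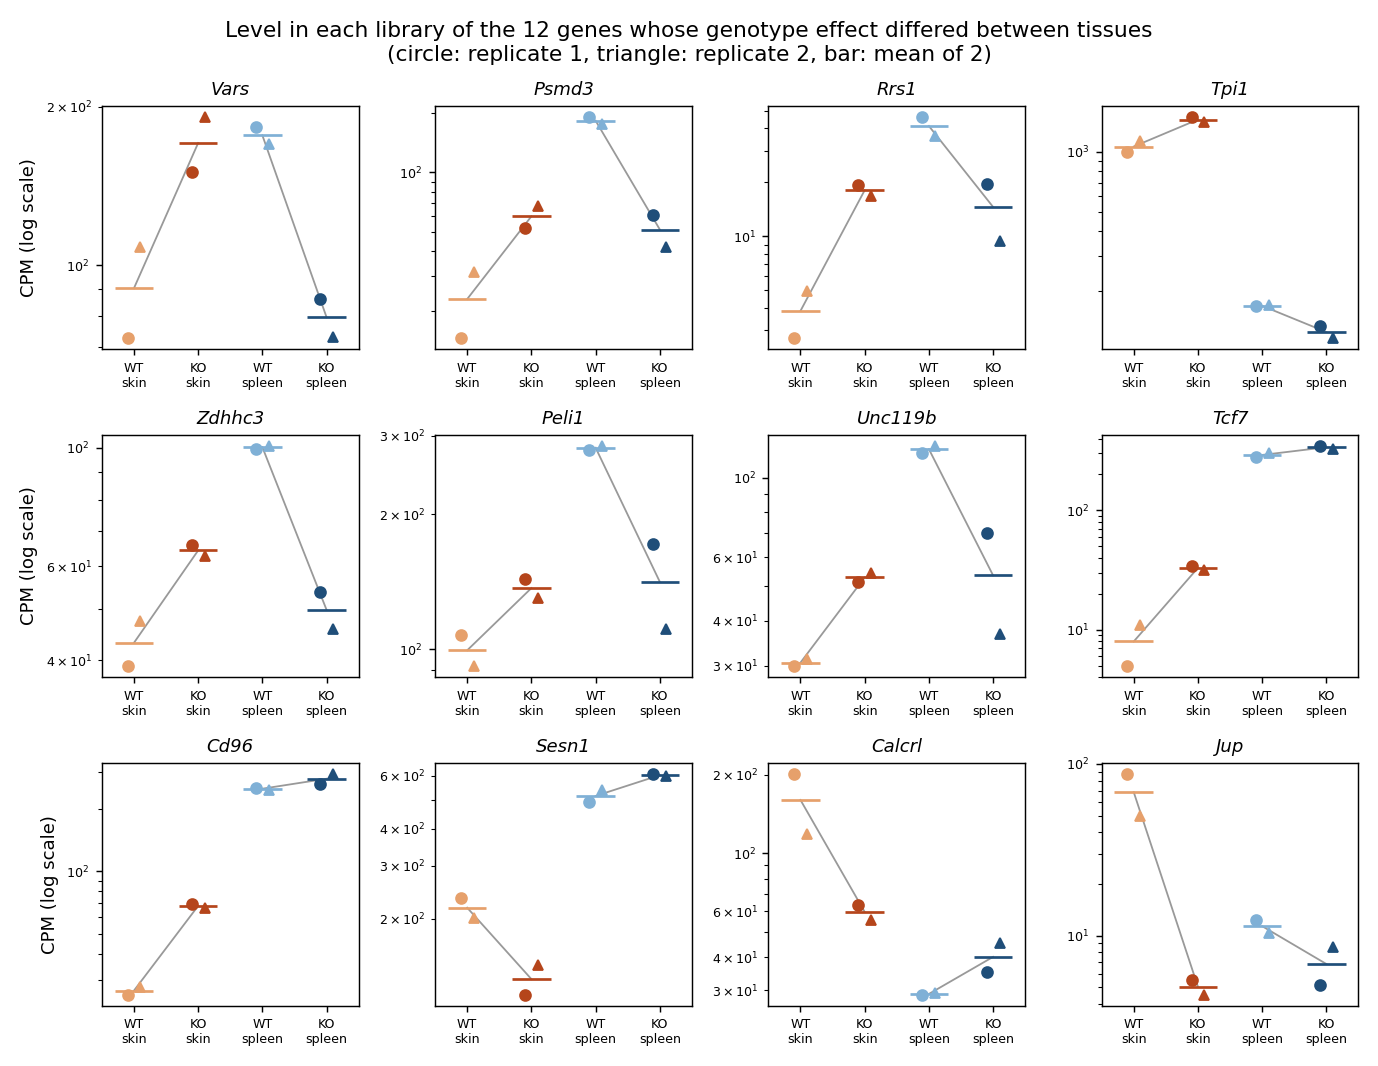
Level of each of the 12 called genes in each library (CPM, logarithmic axis), by group, 2 libraries a group. In the panels of the 7 crossing genes, both KO points lie above both WT points in skin and below them in spleen.

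Tpi1 codes for triosephosphate isomerase, an enzyme of glycolysis (chr6:124810586-124814296, minus strand). Its CPM levels were 996 and 1131 for WT skin and 1492 and 1417 for KO skin, and 167 and 169 for WT spleen and 132 and 116 for KO spleen. Both skin groups were above both spleen groups, and the genotypes did not overlap in either tissue. Tpi1 rose by 0.45 ± 0.101 in KO skin (edgeR adjusted p = 0.0395), and its spleen change was -0.44 ± 0.106 (edgeR adjusted p = 0.112). The difference, 0.89 ± 0.146, was the smallest of the 12 called (edgeR adjusted p = 0.0202).

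Zdhhc3 codes for a palmitoyltransferase of the Golgi, which attaches a fatty acid to proteins (chr9:123066160-123113205, minus strand). Zdhhc3 had CPM levels of 39.0 and 47.3 for WT skin, 65.8 and 62.7 for KO skin, 99.7 and 101 for WT spleen, and 53.7 and 45.8 for KO spleen. WT spleen was the highest group and the KO groups lay between it and WT skin, except that the lower KO spleen library was below the higher WT skin library. Zdhhc3 fell by 1.01 ± 0.181 in KO spleen (edgeR adjusted p = 0.0246), its skin change was 0.58 ± 0.187 (edgeR adjusted p = 0.206), and the difference was 1.58 ± 0.261 (edgeR adjusted p = 0.0202).

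Peli1 codes for a Pellino ubiquitin ligase of Toll-like and T cell receptor signalling (chr11:21091291-21150323, plus strand). Its CPM levels were 107 and 91.5 for WT skin and 143 and 130 for KO skin, and 279 and 285 for WT spleen and 172 and 111 for KO spleen. WT spleen was the highest group, and the KO spleen libraries spread across the KO skin levels. Peli1 fell by 1.00 ± 0.169 in KO spleen (edgeR adjusted p = 0.0224) and its skin change was 0.46 ± 0.173 (edgeR adjusted p = 0.318). The difference was 1.45 ± 0.242 (edgeR adjusted p = 0.0257).

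Unc119b codes for a chaperone that carries lipid-modified proteins to the cilium (chr5:115122550-115134975, minus strand). Unc119b had CPM levels of 29.8 and 31.3 for WT skin, 51.3 and 54.3 for KO skin, 117 and 123 for WT spleen, and 70.1 and 36.8 for KO spleen. The KO spleen libraries lay on either side of the KO skin libraries. Unc119b fell by 1.16 ± 0.231 in KO spleen (edgeR adjusted p = 0.0423), its skin change was 0.78 ± 0.246 (edgeR adjusted p = 0.19), and the difference was 1.94 ± 0.338 (edgeR adjusted p = 0.0257).

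The calls of Tpi1, Zdhhc3, Peli1 and Unc119b each ended when WT skin replicate 1, either KO skin library or either WT spleen library was left out. Those of Tpi1 and Zdhhc3 also ended without KO spleen replicate 2. The edgeR adjusted p of the lost calls ran from 0.0604 to 0.113 for both Tpi1 and Zdhhc3, from 0.0648 to 0.14 for Peli1 and from 0.0735 to 0.154 for Unc119b. Tpi1 overlaps Spsb2 and Zdhhc3 overlaps Tgm4, in each case on the opposite strand, and Psmd3 overlaps the opposite-strand transcript Gm12356. Peli1 overlaps the pseudogene 2610024D14Rik and Sesn1 the transcript 9930024M15Rik, both on the same strand. As no source used here states the strand setting of the counting, reads of the opposite-strand pairs cannot be told apart. For the same-strand pairs, no strand setting could separate the reads.

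The sequence upstream of the called genes' start sites was also read. RefSeq's windows on GRCm38.p6 were matched for 9 of the 12 called genes. There was none for Vars, Psmd3 or Rrs1. The exon-free stretches of 2 crossing genes, Peli1 and Unc119b, and of Jup, the called gene with the largest fall in KO skin, are shown 5′ to 3′ on the gene's strand. Capitals mark matches, on either strand, to the motifs named after the sequences.
Peli1 (chr11:21091074-21091290, plus strand): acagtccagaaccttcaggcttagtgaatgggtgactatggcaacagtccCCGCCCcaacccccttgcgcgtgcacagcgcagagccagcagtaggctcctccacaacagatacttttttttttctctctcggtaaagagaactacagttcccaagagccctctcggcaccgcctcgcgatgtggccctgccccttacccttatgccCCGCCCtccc
Unc119b (chr5:115134976-115135225, minus strand): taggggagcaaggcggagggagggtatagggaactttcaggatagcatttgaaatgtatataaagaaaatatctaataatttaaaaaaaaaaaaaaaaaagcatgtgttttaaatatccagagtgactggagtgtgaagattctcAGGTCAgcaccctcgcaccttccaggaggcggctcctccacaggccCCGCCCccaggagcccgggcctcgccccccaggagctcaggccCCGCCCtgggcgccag
Jup (chr11:100397791-100398040, minus strand): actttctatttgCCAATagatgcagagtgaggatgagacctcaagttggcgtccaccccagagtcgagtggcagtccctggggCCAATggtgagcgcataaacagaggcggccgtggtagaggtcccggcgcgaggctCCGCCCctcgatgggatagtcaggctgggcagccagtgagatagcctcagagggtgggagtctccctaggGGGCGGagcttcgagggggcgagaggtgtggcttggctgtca
GGGCGG, the GC box bound by Sp1-type factors, was found on either strand within the 250 bases before the start for 8 of the 9 genes, or in 10 of their 11 windows (Tcf7 and Sesn1 have 2 each), and for all 4 crossing genes with a window. It was held by 57.1% of the 11351 windows of tested genes and by 32.7% of all 32851 windows. AGGTCA, the core hexamer of nuclear receptor sites, was found upstream of Tcf7 and Unc119b, that is in 2 of the 11 windows, against 10.8% of tested genes' windows. A direct repeat of AGGTCA with 1 base between the copies, the type of site PPAR and RXR bind, was in 0 of the 11 and in 0.0352% of tested genes' windows. CCAAT was found in 3 of the 11 windows (Sesn1 and Jup, 35.6% of tested genes' windows), the E-box CACGTG in 1 (Zdhhc3, 8.49%) and the ETS-type CGGAAG in 1 (Tcf7, 26.4%). Matches of this kind describe the letters of the windows and are not evidence of binding.

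Tcf7 and Cd96 rose in KO skin, while their spleen changes did not pass the test. Tcf7 codes for TCF-1, a transcription factor of resting and memory-like T cells (chr11:52252371-52283014, minus strand). Its CPM levels were 4.93 and 11.0 for WT skin and 34.1 and 32.0 for KO skin, and 280 and 303 for WT spleen and 349 and 327 for KO spleen. KO skin stood clearly above WT skin but remained far below every spleen library. Its log2 change was 2.05 ± 0.235 in skin (edgeR adjusted p = 0.00034) and 0.22 ± 0.161 in spleen (edgeR adjusted p = 0.845), a difference of 1.83 ± 0.284 (edgeR adjusted p = 0.0202). An antisense transcript, A630014C17Rik, and the non-coding Gm26551 overlap Tcf7.

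Cd96 codes for an immunoglobulin-family receptor of T and NK cells that binds CD155 (chr16:46035657-46120251, minus strand). Cd96 had CPM levels of 25.4 and 27.8 for WT skin and 69.8 and 66.4 for KO skin, with little spread. In spleen it was at 253 and 247 CPM in WT and 264 and 294 in KO, again far above both skin groups. The log2 change was 1.34 ± 0.147 in skin (edgeR adjusted p = 0.000153) and 0.16 ± 0.125 in spleen (edgeR adjusted p = 0.854), and the difference was 1.18 ± 0.192 (edgeR adjusted p = 0.0202). Both calls on the difference ended without WT skin replicate 1, either KO skin library or WT spleen replicate 2, and that of Cd96 also without WT spleen replicate 1 (edgeR adjusted p = 0.0604 to 0.113 for each gene).

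The 3 genes with a lower effect in skin fell there. Jup codes for plakoglobin, an armadillo protein of desmosomes and adherens junctions (chr11:100368958-100397763, minus strand). Its CPM levels were 87.6 and 49.5 for WT skin and 5.55 and 4.53 for KO skin, and 12.4 and 10.3 for WT spleen and 5.13 and 8.54 for KO spleen. WT skin stood well above the other 3 groups, and the KO skin libraries overlapped those of KO spleen. Jup fell by 3.63 ± 0.36 in KO skin (edgeR adjusted p = 0.000115), while its spleen change was -0.68 ± 0.355 (edgeR adjusted p = 0.688). The difference was -2.95 ± 0.517 (edgeR adjusted p = 0.0257). Keratinocytes also express Jup. In CPM of the total count, the 13 keratinocyte markers summed to 34.7 and 27.0 for WT skin, 14.6 and 20.2 for KO skin and 5.92 to 14.1 in spleen. Of these sums, the gene Perp alone made up 22.4 and 16.05 for WT skin and 5.59 and 11.5 for KO skin. The part of keratinocytes in the Jup result was not tested.

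Calcrl codes for the calcitonin receptor-like receptor, which binds CGRP or adrenomedullin together with a RAMP protein (chr2:84330626-84425411, minus strand). Calcrl had CPM levels of 202 and 119 for WT skin and 63.7 and 55.8 for KO skin, and 28.8 and 29.2 for WT spleen and 35.1 and 45.3 for KO spleen. KO skin remained above both spleen groups, and the spleen libraries of the genotypes did not overlap, with KO the higher. Calcrl fell by 1.42 ± 0.223 in KO skin (edgeR adjusted p = 0.00426), its spleen change was 0.47 ± 0.238 (edgeR adjusted p = 0.681), and the difference was -1.89 ± 0.326 (edgeR adjusted p = 0.0257). Ramp1, the partner that forms the CGRP receptor, was looked up after its values were seen. Ramp1 had CPM levels of 89.0 and 40.6 for WT skin, 33.8 and 22.9 for KO skin and 62.6 to 76.1 in spleen, with a difference of -1.11 ± 0.429 that was not called (edgeR adjusted p = 0.42).

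Sesn1 codes for a sestrin, a stress-inducible protein that restrains mTORC1 (chr10:41809935-41908424, plus strand). Its CPM levels were 235 and 200 for WT skin and 111 and 140 for KO skin, and 491 and 537 for WT spleen and 609 and 598 for KO spleen. Spleen was above skin in both genotypes, and the KO libraries were the lowest in skin and the highest in spleen. Sesn1 fell by 0.79 ± 0.128 in KO skin (edgeR adjusted p = 0.00453), its spleen change was 0.23 ± 0.122 (edgeR adjusted p = 0.699), and the difference was -1.03 ± 0.176 (edgeR adjusted p = 0.0257). The calls of Jup, Calcrl and Sesn1 on the difference all ended without WT skin replicate 1, KO skin replicate 1 or either WT spleen library, and those of Jup and Calcrl also without KO skin replicate 2 or KO spleen replicate 2. The edgeR adjusted p of the lost calls was 0.0663 to 0.195 for Jup, 0.0852 to 0.154 for Calcrl and 0.0867 to 0.14 for Sesn1.

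Seen from the tissues, the same contrast is the change in the skin-spleen gap between WT and KO. All 12 genes differed between WT skin and WT spleen (31.8% of tested genes did). Vars, Tcf7, Cd96, Tpi1 and Sesn1, or 5 genes, also differed between KO skin and KO spleen (29% did). These gaps share their libraries with the interaction, so the values only describe it. The skin-spleen gap of Psmd3 went from -3.00 in WT to 0.22 in KO, that of Rrs1 from -3.30 to 0.31, and that of Vars turned from -0.97 to 1.09. The gaps of Zdhhc3 and Jup also changed sign, from -1.21 to 0.37 and from 2.54 to -0.41. Among these genes only Vars had a KO gap that passed the test (edgeR adjusted p = 0.000185). The KO gaps of Psmd3, Rrs1, Zdhhc3 and Jup did not pass (edgeR adjusted p = 0.149 to 0.587), so a reversal was not shown for them. The gap narrowed for Peli1 (-1.50 to -0.04), Unc119b (-1.96 to -0.01), Tcf7 (-5.17 to -3.33), Cd96 (-3.21 to -2.03) and Calcrl (2.45 to 0.56). It widened for Tpi1 (2.66 to 3.55) and Sesn1 (-1.24 to -2.26). Thus, by the estimates alone, 5 gaps narrowed, 5 turned and 2 widened, where over all tested genes 41.1% narrowed, 21.2% turned and 37.8% widened.

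**Figure D3:**
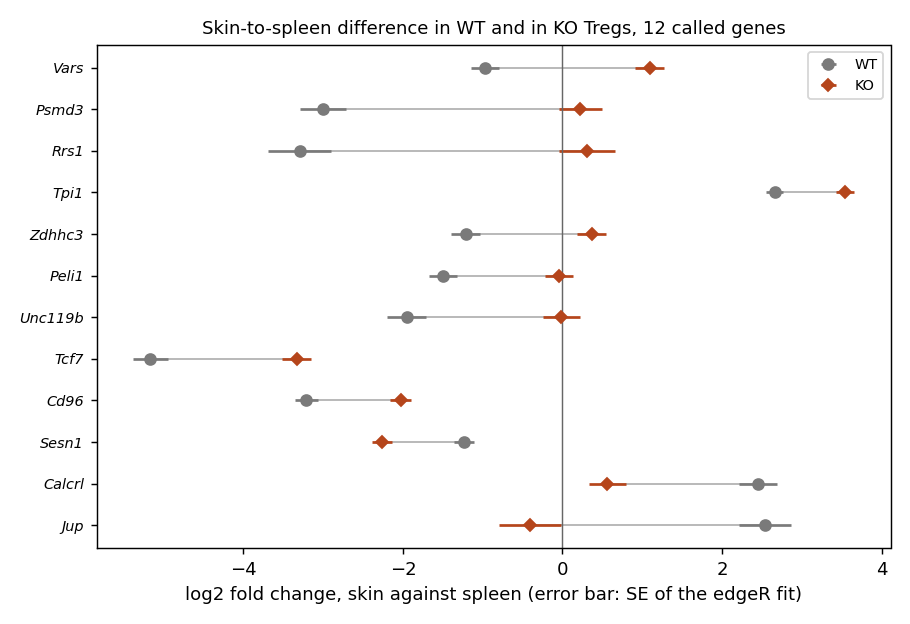
Skin against spleen difference (log2 fold change, with SE) of each called gene in WT and in KO. The KO points of Psmd3, Rrs1, Peli1 and Unc119b lie near 0, and those of Tpi1 and Sesn1 lie farther from 0 than the WT points.

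Because few genes passed, the genes with the smallest p below them in rank were also read. None of these further differences was called in edgeR's robust fit with the low-count filter. Izumo1r, the folate receptor FR4 of Tregs, followed Tcf7 and Cd96 in form, with 41.2 and 35.2 CPM for WT skin, 103 and 84.5 for KO skin and 475 to 643 in spleen. Its difference was 1.11 ± 0.212 (edgeR adjusted p = 0.0649). On the lower side, Wls, the carrier that brings Wnt proteins to the cell surface, was at 204 and 192 CPM for WT skin and 64.2 and 82.1 for KO skin. Spleen Wls ranged from 36.7 to 67.9 CPM with overlapping genotypes, for a difference of -1.59 ± 0.320 (edgeR adjusted p = 0.0717). The differences of the elongation factor gene Ell (-1.74), the transcription factor genes Klf6 (-0.61), Klf7 (-1.47) and Zbtb38 (-0.87), the Golgi matrix gene Golga2 (-1.15) and the mRNA decay gene Zfp36 (-1.13) had an edgeR adjusted p of 0.0717 to 0.0866. Klf7 and Zbtb38 were lower in both KO skin libraries than in either WT skin library, with spleen changes of 0.24 and -0.03.

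The lists of gene groups were read by their counts and medians, beside a median of 0.01 over all genes. Of all 12414 tested genes, 6277 had a difference above 0 and 6137 below 0. An unadjusted p under 0.05 in edgeR's test was found for 9.49% of them. Of 28 glycolysis and hypoxia genes, Tpi1 was called higher in skin, none was lower and 27 did not pass, while 21 had a difference above 0. The list's median difference was 0.40, from a median of 0.33 in skin and -0.08 in spleen. The enolase gene Eno1 was at 642 and 730 CPM for WT skin and 1087 and 1051 for KO skin, against 330 to 393 in spleen, and its difference was 0.48 ± 0.143 (edgeR adjusted p = 0.205). The lactate dehydrogenase gene Ldha had a difference of 0.43 ± 0.128 (edgeR adjusted p = 0.213).

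Protein synthesis and turnover gave 1 called gene in each of 3 lists. Of 39 proteasome genes, Psmd3 was called and the other 38 lay between -0.27 and 0.37, with a list median of 0.09. Of 40 ribosome biogenesis genes, Rrs1 was called, the other 39 lay between -0.64 and 1.99, and the median was 0.16. A list of 23 cytosolic tRNA synthetase genes, chosen after the values were seen, held Vars as its called gene, the other 22 lay between -0.42 and 0.50, and its median was 0.16. None of 68 oxidative phosphorylation genes was called by edgeR, which gave 2 an unadjusted p under 0.05, and their median was 0.09. Among the 18 palmitoyltransferase genes tested, a list likewise chosen afterwards, Zdhhc3 was the called gene, the other 17 lay between -0.47 and 1.46, and the median was -0.06.

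**Figure D4:**
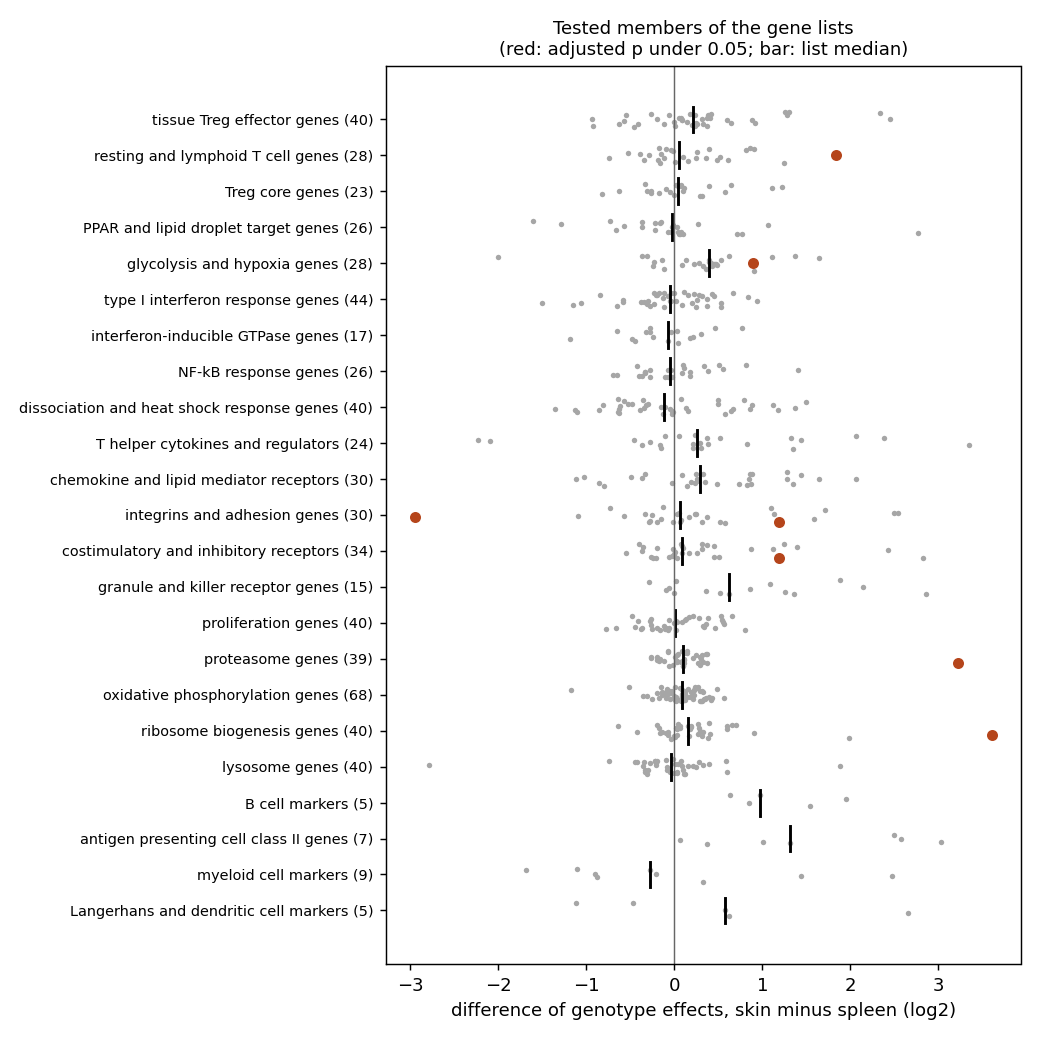
Difference of the genotype effects (skin minus spleen, log2 scale) for the tested members of the lists with at least 5 of them, one point per gene, with the list median as a bar. Called genes are red, and the proteasome list is narrow apart from Psmd3.

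None of 26 PPAR and lipid droplet target genes was called by edgeR, with 11 above and 15 below 0, a median of -0.03 and 6 at an unadjusted p under 0.05. The lipid droplet coat gene Plin2 was at 358 and 233 CPM for WT skin and 36.5 and 27.2 for KO skin, and 28.6 and 42.1 for WT spleen and 8.63 and 13.8 for KO spleen. KO was lower than WT in both tissues without overlap, and the difference of -1.60 ± 0.414 was not called (edgeR adjusted p = 0.173). Cpt1a, which carries fatty acids into mitochondria, had a difference of -0.57 ± 0.202 (edgeR adjusted p = 0.325), and the lipid droplet gene Hilpda one of -0.66 ± 0.234 (edgeR adjusted p = 0.325).

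Of 28 resting and lymphoid T cell genes, Tcf7 was called, 27 did not pass, and the median was 0.05, with 15 above and 13 below 0. The homing receptor gene Ccr7 was at 35.0 and 43.1 CPM for WT skin, 106 and 88.4 for KO skin, 665 and 751 for WT spleen, and 971 and 976 for KO spleen. KO was the higher genotype in both tissues, and the difference of 0.86 ± 0.177 was not called (edgeR adjusted p = 0.0717). None of 40 tissue Treg effector genes was called by edgeR, with 29 above 0, a median of 0.22 and 9 at an unadjusted p under 0.05. The transcription factor gene Bhlhe40 was at 202 and 235 CPM for WT skin and 378 and 322 for KO skin, and 14.7 and 17.5 for WT spleen and 11.9 and 8.78 for KO spleen. Its genotypes were apart in opposite directions, as in the crossing genes, and the difference of 1.30 ± 0.254 was not called (edgeR adjusted p = 0.0649). None of 23 Treg core genes was called by edgeR (4 at an unadjusted p under 0.05), and their median was 0.04.

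Receptors gave Cd96 as the called gene among 34 costimulatory and inhibitory receptor genes (median 0.09), and Cd96 and Jup among 30 integrin and adhesion genes (median 0.07). Tnfrsf8, which codes for CD30, was at 33.8 and 18.1 CPM for WT skin and 36.7 and 19.6 for KO skin, which overlap. In spleen Tnfrsf8 was at 7.25 and 12.3 CPM in WT and 1.08 and 0.949 in KO, and the difference of 2.83 ± 0.607 was not called (edgeR adjusted p = 0.0717). None of 30 chemokine and lipid mediator receptor genes was called by edgeR, with 22 above 0, a median of 0.29 and 9 at an unadjusted p under 0.05.

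The 15 granule and killer receptor genes tested had a median difference of 0.62, with 11 above 0. None was called by edgeR, and 5 had an unadjusted p under 0.05. Nkg7, a granule membrane gene, was at 308 and 299 CPM for WT skin, 146 and 166 for KO skin, 74.9 and 108 for WT spleen, and 20.5 and 22.5 for KO spleen. Nkg7 was lower in KO in both tissues, with log2 changes of -2.05 in spleen and -0.96 in skin, a difference of 1.09 ± 0.233 that was not called (edgeR adjusted p = 0.0717). The lysosomal membrane gene Lamp1 lay between 13.5 and 16.9 CPM in all skin libraries and stood at 80.5 and 73.0 for WT spleen against 26.4 and 14.7 for KO spleen. Its difference was 1.89 ± 0.401 (edgeR adjusted p = 0.0717). In CPM of the total count, the 10 CD8 T and NK cell markers summed to 279 to 308 for WT skin, 159 to 175 for KO skin, 111 to 144 for WT spleen and 46.1 to 54.1 for KO spleen, and Nkg7 itself made up most of the sum in skin and in WT spleen. Without Nkg7 the other 9 summed to 28.0 and 8.99 for WT skin, 24.8 and 20.5 for KO skin, 30.5 and 27.5 for WT spleen, and 23.8 and 29.6 for KO spleen, so that WT and KO overlapped in each tissue.

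NF-kB response genes, stress genes and interferon genes held no called gene by edgeR. Of 26 NF-kB response genes, 5 had an unadjusted p under 0.05, and the median was -0.05. Tnfaip3, an inhibitor of NF-kB signalling, was at 678 and 837 CPM for WT skin, 957 and 895 for KO skin, 74.2 and 109 for WT spleen, and 47.8 and 36.3 for KO spleen. The genotypes of Tnfaip3 were apart in opposite directions, and the difference of 1.40 ± 0.249 was not called (edgeR adjusted p = 0.067). Nfkbia, another inhibitor, had a difference of -0.70 ± 0.157 (edgeR adjusted p = 0.0866). The 40 dissociation and heat shock genes had a median of -0.11, with 25 below 0 and 12 at an unadjusted p under 0.05. In CPM of the total count, their summed level was 25260 and 28610 for WT skin, 23530 and 21940 for KO skin, and 5323 to 5770 in spleen. Its part in the lower values of Klf6 and Zfp36, which belong to that list, was not tested. The 44 type I interferon genes had a median of -0.04 (2 at an unadjusted p under 0.05), and the 40 proliferation genes one of 0.01 (6 at an unadjusted p under 0.05, none called by edgeR). Among the lists not yet described, 40 lysosome genes had a median of -0.04, 24 T helper cytokine and regulator genes one of 0.26, 17 interferon-inducible GTPase genes one of -0.07 and 5 B cell markers one of 0.97. None of their genes was called by edgeR, with 2, 5, 1 and 2 at an unadjusted p under 0.05.

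Class II genes of antigen presenting cells differed between the KO skin libraries. Their summed level was 232 CPM of the total count in KO skin replicate 1 and 99.5 CPM in replicate 2, against 59.1 and 73.5 for WT skin and 141 to 173 in spleen. H2-Aa, which defines such cells, was at 38.1 CPM in that 1 library and at most 2.24 CPM in the others. All 7 tested class II genes had a difference above 0, and none was called by edgeR (4 at an unadjusted p under 0.05). Their median of 1.32 was the value of H2-Ob, which was higher in both KO skin libraries than in either WT skin library. So was H2-Aa, at 38.1 and 2.24 CPM of the total count for KO skin and 1.567 and 1.605 for WT skin. H2-Ob was at 19.2 and 13.2 CPM of the total count for KO skin and 6.04 and 2.57 for WT skin. In spleen H2-Ob made up 63.7 to 110 CPM of the summed level. Whether the cells behind the class II reads bear on the called genes was not tested.

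Genes with opposite effects were also counted without adjustment. An unadjusted p under 0.05 in both tissues with opposite signs was found for 97 genes (0.781% of those tested). Of these, 81 were higher in KO skin and lower in KO spleen, and 16 were the reverse. The library order of the 81 was uneven, with WT skin replicate 1 below replicate 2 in 68 (84%) and KO spleen replicate 2 below replicate 1 in 73 (90.1%), against 47.7% and 49.9% of all tested genes. The 7 called crossing genes had the same order in 6 and in 7 cases. Library and genotype effects within these 81 genes were not tested against each other.

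Leaving out a library left its group with 1 sex and also reran the low-count filter. These fits therefore tested 13166 to 13594 genes instead of 12414. The number of called genes moved widely between them, and the parts of library and filter were not tested. It was 12 with all 8 libraries, 146 without WT skin replicate 2 and 145 without KO spleen replicate 1, when all 12 genes kept their calls. It was 1 without KO skin replicate 1, 2 without WT skin replicate 1, 3 without KO skin replicate 2, 2 without WT spleen replicate 2, 9 without WT spleen replicate 1 and 16 without KO spleen replicate 2. Of the 12 genes, Vars alone kept its call in all 8 of these fits.

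**Figure D5:**
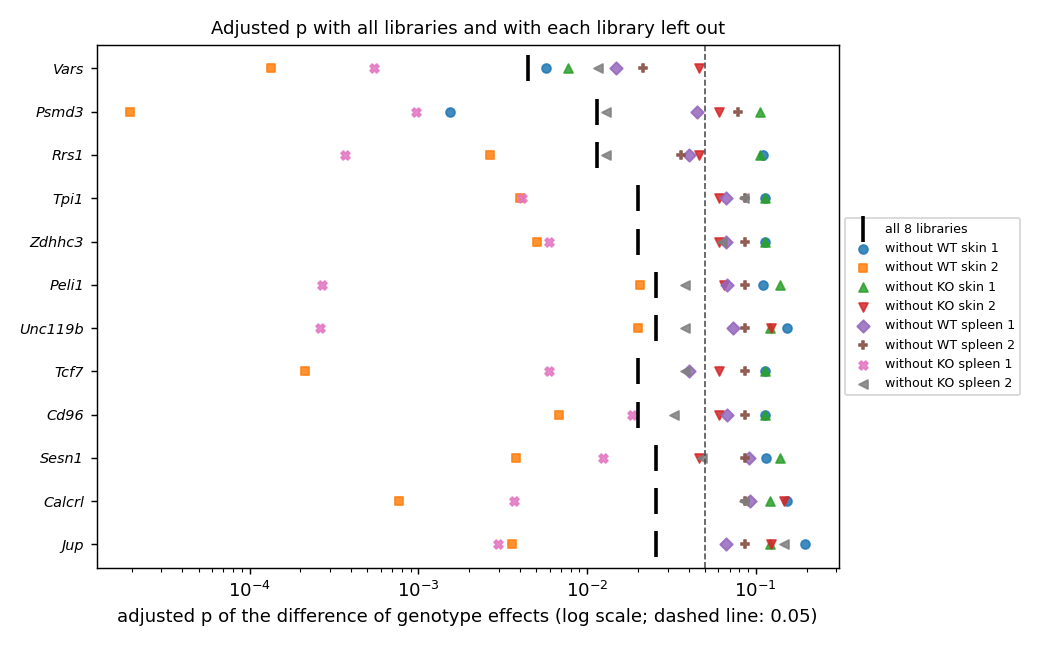
Adjusted p of the interaction (edgeR, logarithmic axis) of each called gene with all libraries and without each library in turn, with the threshold of 0.05 as a line. Vars stays under the line throughout, and each of the other 11 genes crosses it in at least 2 fits.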

How the data were processed

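RNA from sorted Tregs was primed with oligo(dT), amplified by limited PCR, fragmented with the Nextera XT kit and read as 2 reads of 25 bases, per the labels' protocols. The deposited values are raw counts per gene symbol, made with STAR 2.7.3a and featureCounts on mm10, per the submitters' processing notes. No source used here states the annotation, the strand setting or the handling of multiply mapped reads. PCR copies were not marked by molecular identifiers. The table held 55011 symbols, 28902 of them detected, and no column was left unused.

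The 12414 genes kept by filterByExpr (minimum count 10) were scaled by TMM and fitted with edgeR 4.0.16 in R 4.3.3, by the robust quasi-likelihood method with 1 coefficient per group over all 8 libraries. The contrast was KO minus WT in skin, less KO minus WT in spleen, with Benjamini-Hochberg adjustment over all tested genes, a threshold of 0.05 and a prior count of 2. The biological coefficient of variation was 17.5%. DESeq2 1.42.0, limma-voom (limma 3.58.1), other scalings and filters, a replicate block and leaving out each library were alternatives, and a GC content offset was added after the data were seen. Members, lists and tests were chosen with earlier results of these data known. The genes named are Pparg and Foxp3, the 12 largest called changes per direction with an average log2 CPM of at least 2 (filled up to 10 by smallest p), the crossing genes, and up to 3 genes of smallest p per list, with unnamed transcripts, pseudogenes, receptor segments and sex-linked genes left out. Not every gene that the rule names is reported here. Positions are from GENCODE M21 on the same build. In every group replicate 1 carried Xist and replicate 2 Y-linked transcripts, so the number goes with sex. The variance between replicates was 4.37 to 7.01 times that of counting noise (chi-square per degree of freedom, sex-linked genes included).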

Additional observations from a re-analysis of the deposited data

Results flagged for a closer look

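For 12 genes the genotype effect differed between skin and spleen by edgeR's test of the difference itself. Where the value was positive, the effect in skin exceeded that in spleen, and the log2 difference was 3.61 for Rrs1, 3.23 for Psmd3, 2.06 for Vars, 1.94 for Unc119b, 1.83 for Tcf7, 1.58 for Zdhhc3, 1.45 for Peli1, 1.18 for Cd96 and 0.89 for Tpi1. It was -2.95 for Jup, -1.89 for Calcrl and -1.03 for Sesn1.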

How the results depend on the processing

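With other scalings, a stricter filter, no sex-linked genes or a GC offset, all 12 genes kept their calls. A prior count of 0.5 changes the reported log2 differences but not the test, so its 12 calls were fixed in advance. Without robust estimation 6 of them did, as Unc119b, Peli1, Tpi1, Jup, Calcrl and Sesn1 had an edgeR adjusted p of 0.0548 to 0.0583, and 8 genes were called in all (0 lower in edgeR, 435 lower at an unadjusted p under 0.05). Against a fold threshold of 1.5, Rrs1, Psmd3 and Vars kept theirs (3 higher, 0 lower, 157 lower at an unadjusted p under 0.05; the others at an edgeR adjusted p of 0.142 to 0.642). Without a low-count filter there were 233 calls (184 higher, 49 lower, 121 crossing; 344 in skin, 154 in spleen). DESeq2 gave 96 (77, 19 and 46; 84 in spleen) and limma-voom 59 (54, 5 and 47), the latter without Jup (limma adjusted p = 0.0923). Of the 22 genes named as not called and refitted, 16 passed in at least 1 alternative. The same 16 passed with DESeq2 and with edgeR without the low-count filter. With limma-voom 4 did (Wls, Klf6, Tnfaip3 and Nfkbia). The labels do not pair same-numbered libraries, whose replicate differences correlated at r = 0.0283 to 0.112 between groups, although replicate 1 carried Xist in every group. With the replicate block, 16 genes were called (12 higher, 4 lower, 9 crossing), and with the GC offset as well, 16 (11 higher, 5 lower). Leaving out 1 library gave 1 to 146 calls, 1 to 128 higher, 0 to 23 lower, 1 to 101 crossing, 29 to 209 in skin and 7 to 119 in spleen, and the lone sample was assumed to vary like the other groups. Pparg turned to -0.03 and -0.21 in 2 of these fits, whose range was -0.21 to 0.63. With 2 libraries a group and 3115832 counts in the shallowest, small differences of low genes could not be resolved. The fits without 1 library also reran the filter, which left 13166 to 13594 genes to test. The cause of the shifts between fits was not tested.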
